A study of Mus musculus with 4 samples.

Results

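Transcript levels of 10 genes that encode transcription factors of the T cell lineage were described in CD4+ T cell preparations from mouse lung tumors. The genes were Tox, Tox2 and Tox4 of the TOX family, Myb, Bcl11b, Ets1, the Ikaros family genes Ikzf1 and Ikzf3, Runx1 and Id3, out of 25239 genes listed. Tox, Tox2, Tox4 and Myb were chosen from values measured in these same libraries, in which Myb stood out for a large rise, and the other genes for their place in T cell development. The difference between the genotypes is therefore given for these 10 genes as a description with its standard error and without a test. All 10 were among the 13919 genes that passed the filter on low counts, but Tox2, with 4 and 2 counts in the WT libraries, passed only through the CD4/ALK4-KO libraries.

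The WT libraries came from C57BL/6 mice and the CD4/ALK4-KO libraries from CD4CreERT2+/-/Acvr1bfl/fl mice of the same background, with 2 libraries per genotype that the study describes as biological replicates. Acvr1b encodes ALK4, a type I receptor for activin-A, and the floxed alleles are deleted by a tamoxifen-activated Cre that is driven by the Cd4 promoter and so acts in any cell that uses this promoter. The mice were males of 8 to 10 weeks, tamoxifen was given in 5 daily doses, and LLC-OVA cells, from a Lewis lung carcinoma that makes ovalbumin, were injected intravenously. By the labels, lung tumors were taken 18 to 22 days later, while the study's methods give a somewhat earlier range for these mice. Leukocytes were collected from a density gradient, and CD4+ T cells were isolated from them. The study names the WT mice as littermates of the knock-outs. Whether they received tamoxifen or carried Cre or a floxed allele, and whether a library was made from 1 mouse or from several, is not given in the sources used here, so the spread between libraries of a genotype may be in part technical.

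The libraries held 11823908 to 13943237 counts. Acvr1b, the targeted gene, did not separate the genotypes, with 426 and 342 counts under the WT label against 322 and 445 under the CD4/ALK4-KO label (log2 fold change 0.16, SE 0.24, adjusted p = 0.66), and the genotypes are used here as labelled. A count over the whole gene need not change when only some exons are deleted, and other cells in the libraries can express Acvr1b, so it gives no check of the deletion. Cd4 was higher in the CD4/ALK4-KO libraries (log2 fold change 2.62, SE 0.23, adjusted p = 2.8e-08), and so were 16 of 16 T cell identity genes, whose summed level was 500 to 530 CPM, counts scaled to the size of the library, in WT and 2630 to 2870 CPM in CD4/ALK4-KO libraries. Genes of other cells were present in both genotypes. In the T cell identity list and the lists that follow, higher and lower mean an adjusted p under 0.05 in the edgeR quasi-likelihood test. That test called 17.4% of all genes tested higher and 15.4% lower. The macrophage gene Lyz2 stood at 4980 CPM in WT and 4490 CPM in CD4/ALK4-KO libraries on average, and the macrophage and monocyte list summed to 7180 to 8210 CPM and 7140 to 7550 CPM. B cell genes were higher for 12 of 12 (85.3 to 101 CPM against 300 to 579 CPM), NK cell genes for 8 of 8 (152 to 228 CPM against 592 to 622 CPM) and dendritic cell genes for 5 of 8 with 1 lower (127 to 149 CPM against 326 to 332 CPM), while 5 of 8 fibroblast genes and 11 of 16 cell cycle genes were lower. CD4/ALK4-KO replicate 1 stood apart by genes of immature T cells of the thymus, with Rag1, a recombinase gene, at 244 CPM in it and at 0.243 to 1.48 CPM in the other libraries. The whole thymocyte list summed to 691 CPM in it, to 152 CPM in CD4/ALK4-KO replicate 2, and to 46.6 and 54.6 CPM in the WT libraries, but it also holds genes of other cells, and Cd8b1, which mature CD8 T cells express, gave 87.6 CPM of the 152 CPM. Each of the 10 genes is therefore given with and without this library.

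The thymus makes T cells in steps that are set by such factors. TOX proteins bind DNA through an HMG box, a bent-DNA-binding domain, and TOX is known for its role in CD4+ T cell development in the thymus and for its lasting expression in T cells that are exposed to antigen for long, as in tumors. c-Myb, the product of Myb, is needed for the growth and survival of immature T cells, Bcl11b for commitment to the T lineage, and Ets1, Ikaros (Ikzf1), Aiolos (Ikzf3) and Runx1 take part in the activity of T cell genes, while Id3 binds E proteins and keeps them from DNA.

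Since a read is counted only where it can be placed, the TOX family was first compared by sequence. A run of 120 coding bases at the start of the HMG box, where Tox and Tox2 are most alike, is shown for the 4 family genes to make visible how far a read can tell them apart. The sequences are from GENCODE M21 transcripts on GRCm38, read 5′ to 3′ on the coding strand, and capitals mark bases that differ from Tox. The stretch lies in exon 5 of Tox at chr4:6722196-6722315 on the minus strand, in exon 5 of Tox2 at chr2:163315845-163315964 on the plus strand, in exon 5 of Tox3 at chr8:90254333-90254452 on the minus strand and in exon 6 of Tox4 at chr14:52287354-52287473 on the plus strand.
Tox: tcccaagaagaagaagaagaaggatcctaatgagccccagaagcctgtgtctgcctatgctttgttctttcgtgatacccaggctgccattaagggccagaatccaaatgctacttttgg
Tox2: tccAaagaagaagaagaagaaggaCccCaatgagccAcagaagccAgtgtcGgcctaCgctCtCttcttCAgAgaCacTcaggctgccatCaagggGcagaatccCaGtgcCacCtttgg
Tox3: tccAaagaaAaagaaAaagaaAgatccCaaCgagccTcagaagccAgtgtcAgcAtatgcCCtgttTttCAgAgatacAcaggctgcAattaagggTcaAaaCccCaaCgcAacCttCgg
Tox4: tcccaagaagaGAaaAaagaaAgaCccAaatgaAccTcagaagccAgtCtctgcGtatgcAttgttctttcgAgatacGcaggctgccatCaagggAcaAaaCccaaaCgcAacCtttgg
Against Tox, the stretch differed at 20 bases in Tox2, 26 in Tox3 and 21 in Tox4, and the longest identical run was 20, 8 and 11 bases. No stretch of 75 bases, the length of the reads, was shared between any of these family members. Tox shared 186 of its 7535 stretches of this length with Gm11802, which overlaps it on the opposite strand and is not listed in the files. Tox4 shared 1036 of 7090 (14.6%) with Gm5828 and with its overlapping neighbors Mettl3 and Rab2b on the opposite strand. The library kit does not mark strand, so counts of Tox4 and these neighbors are uncertain to that extent.

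Tox had 61 and 46 counts in the WT libraries and 343 and 337 counts in the CD4/ALK4-KO libraries. These correspond to 4.45 and 3.40 CPM against 28.8 and 27.3 CPM, so that the groups did not overlap and the CD4/ALK4-KO libraries lay close together. The fold change was 7.13 (log2 2.83, SE 0.30), and it was 2.82 (SE 0.31) on the log2 scale without CD4/ALK4-KO replicate 1. The Tox gene lies at chr4:6686353-6991557 on the minus strand. In these bulk libraries, a difference in the share of T cells and one in RNA per T cell cannot be told apart for this and the following genes.

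Tox2, which encodes a TOX relative known from follicular helper T cells, was the rarest of the 10 genes. It had 4 and 2 counts in WT libraries and 28 and 41 in CD4/ALK4-KO libraries. The fold change was 12.4 (log2 3.63, SE 0.72), with the largest error of the 10, and it was 3.89 (SE 0.76) on the log2 scale without CD4/ALK4-KO replicate 1. Of the follicular helper T cell genes, 6 of the 7 tested were higher, and their sum went from 129 to 136 CPM in WT to 389 to 426 CPM in CD4/ALK4-KO libraries. The part of that cell type in the value of Tox2 was not tested.

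Tox4, a widely expressed family member that acts in a phosphatase complex on chromatin, differed least within the family. It stood at 45.3 and 49.5 CPM in WT libraries and at 82.9 and 84.9 CPM in CD4/ALK4-KO libraries, with no overlap. The fold change was 1.77 (log2 0.82, SE 0.21), and it was 0.87 (SE 0.22) on the log2 scale without CD4/ALK4-KO replicate 1. Tox3, the fourth family gene, had 1, 5, 4 and 0 counts in WT replicates 1 and 2 and CD4/ALK4-KO replicates 1 and 2 and was too low to be tested.

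Across the 10 genes, both CD4/ALK4-KO libraries were above both WT libraries for 9 genes and below them for Id3, while 32.7% of all genes tested were above and 34.0% below in this way. Since this contrast chose members of the list, the count is given without further reading. The same limit holds for the median log2 fold change, which was 2.64 over the 10 genes and -0.0082 over all genes tested. Without CD4/ALK4-KO replicate 1 the median over the 10 genes was 2.51.

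**Figure D1:**
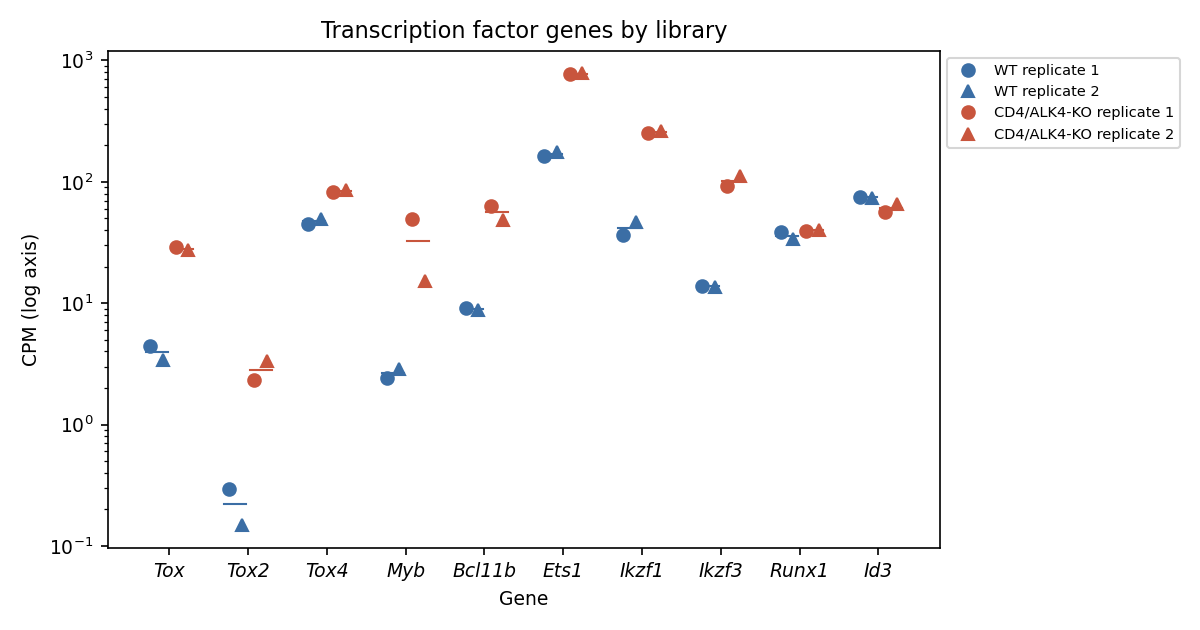
Level of each of the 10 genes in CPM on a log axis in the 2 WT and 2 CD4/ALK4-KO libraries, 1 point per library, with a line at the mean of each genotype. Tox stands at 3.40 to 4.45 CPM in WT and 27.3 to 28.8 CPM in CD4/ALK4-KO libraries, Myb is spread from 15.2 to 49.5 CPM between the CD4/ALK4-KO libraries, and Runx1 and Id3 stay near their WT level.

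Of the 10 genes, Myb differed most between libraries of the same genotype. It had 33 and 39 counts in the WT libraries, 589 counts in CD4/ALK4-KO replicate 1 and 188 counts in CD4/ALK4-KO replicate 2. In CPM the values were 2.41, 2.88, 49.5 and 15.2, so both CD4/ALK4-KO libraries were above both WT libraries, but they differed 3.25-fold from each other. Of 10460 genes that averaged 100 counts or more, 15 (0.143%) had a ratio of CD4/ALK4-KO replicate 1 to replicate 2 as high as Myb or higher. The fold change between the genotypes was 12.2 (log2 3.61, SE 0.57), and the log2 value was 2.55 (SE 0.37) when CD4/ALK4-KO replicate 1 was left out and 4.22 when replicate 2 was. Myb lies at chr10:21124935-21160984 on the minus strand and shares 284 of 9076 stretches of 75 bases (3.13%) with the overlapping transcript Gm26577.

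The thymocyte genes differed between these libraries in the same direction as Myb. Rag1, the recombinase gene that cuts antigen receptor loci in immature lymphocytes, had 5 and 20 counts in the WT libraries, 2903 in CD4/ALK4-KO replicate 1 and 3 in CD4/ALK4-KO replicate 2. Ccr9, a homing receptor of thymocytes and gut T cells, had 112, 96, 1435 and 224 counts in the same order. Cd8b1, a CD8 chain gene, had 290, 269, 1696 and 1081 counts. Further genes of the list, named after their values were seen, were Dntt, the polymerase that adds bases at receptor junctions, with 17, 60, 1015 and 61 counts, Rag2 with 0, 1, 113 and 0 counts, and Arpp21 with 0, 1, 242 and 0 counts. For the summed list, with its genes of other cells, the ratio of CD4/ALK4-KO replicate 1 to replicate 2 was 4.56, beside the 3.25 of Myb. In CD4/ALK4-KO replicate 2, Rag1 was at 0.243 CPM, Rag2 and Arpp21 were at 0, and Myb stood at 15.2 CPM, above both WT libraries. The part of thymocyte RNA in the level of Myb was not tested.

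**Figure D2:**
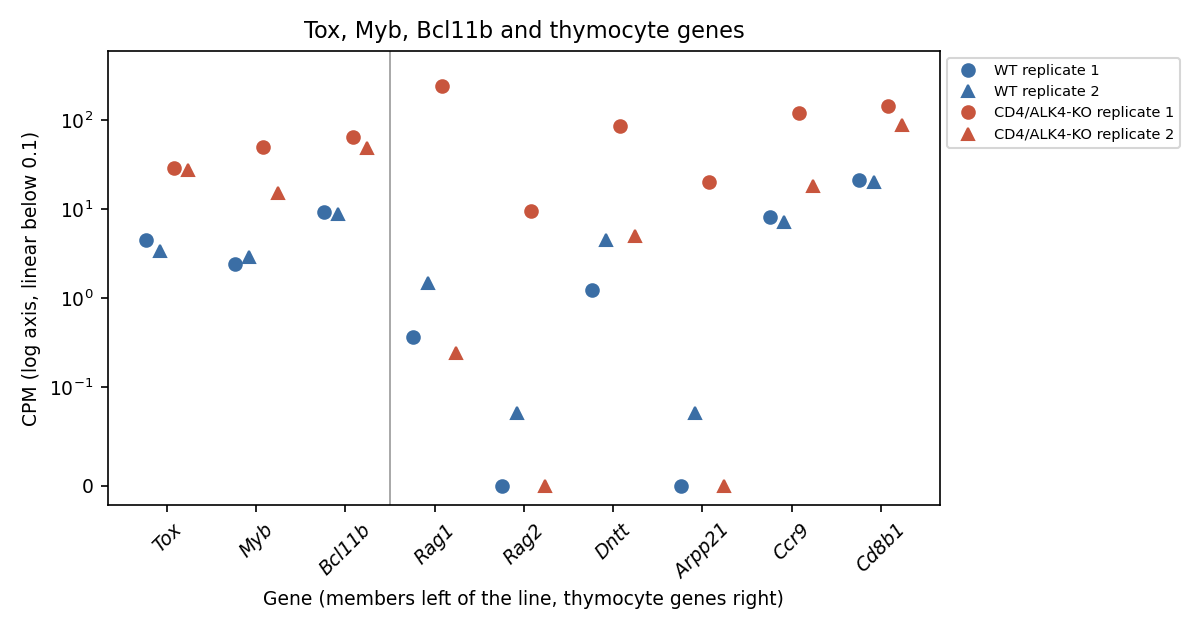
Tox, Myb and Bcl11b (left of the line) and the 6 thymocyte genes named above (right of the line) in CPM in the 4 libraries, on a log axis that is linear below 0.1 CPM. Rag1 stands at 244 CPM in CD4/ALK4-KO replicate 1 and at 0.243 CPM in CD4/ALK4-KO replicate 2, Myb at 49.5 and 15.2 CPM, and Tox at 28.8 and 27.3 CPM.

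Bcl11b, which fixes the T cell fate, had 125 and 118 counts in the WT libraries and 759 and 598 in the CD4/ALK4-KO libraries. The levels of 9.12 and 8.72 CPM against 63.8 and 48.4 CPM did not overlap, and CD4/ALK4-KO replicate 1 was the higher of its group by 1.32-fold. The fold change was 6.28 (log2 2.65, SE 0.25), and it was 2.47 (SE 0.27) on the log2 scale without that library. Bcl11b lies at chr12:107910403-108003602 on the minus strand.

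Ets1, the founding member of the ETS family and abundant in resting lymphocytes, had the largest counts of the group. It had 2241 and 2383 counts in WT libraries and 9253 and 9670 in CD4/ALK4-KO libraries, or 164 and 176 CPM against 777 and 783 CPM. The libraries of each genotype lay within a narrow range, and the fold change was 4.59 (log2 2.20, SE 0.22). Without CD4/ALK4-KO replicate 1 it was 2.24 (SE 0.18) on the log2 scale. Ets1 lies at chr9:32636221-32757820 on the plus strand.

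Both Ikaros family genes were higher in the CD4/ALK4-KO libraries. Ikzf1, at chr11:11685003-11772926 on the plus strand, stood at 36.3 and 46.4 CPM in WT libraries and at 253 and 262 CPM in CD4/ALK4-KO libraries. Its fold change was 6.22 (log2 2.64, SE 0.23), or 2.69 (SE 0.20) on the log2 scale without CD4/ALK4-KO replicate 1. Neither group overlapped the other. Ikzf3, at chr11:98464902-98546031 on the minus strand, stood at 13.9 and 13.6 CPM in WT libraries and at 91.7 and 112 CPM in CD4/ALK4-KO libraries. Its fold change was 7.42 (log2 2.89, SE 0.24), or 3.06 (SE 0.23) on the log2 scale without CD4/ALK4-KO replicate 1. Ikzf1 and Ikzf3 are used by B cells too, and within the CD4/ALK4-KO group Ikzf3 was higher in replicate 2, the library with the higher B cell sum of 579 CPM against 300 CPM. The part of B cell RNA in either gene was not tested.

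Runx1 and Id3 differed little between the genotypes. Runx1, at chr16:92601466-92826149 on the minus strand, had 530 and 453 counts in WT libraries and 473 and 496 in CD4/ALK4-KO libraries, or 38.7 and 33.5 CPM against 39.7 and 40.2 CPM. The log2 fold change was 0.15 (SE 0.22), smaller than its error, and it was 0.19 (SE 0.24) without CD4/ALK4-KO replicate 1. Id3, at chr4:136143497-136145755 on the plus strand, was the only one of the 10 genes with a lower level in the CD4/ALK4-KO libraries, with 74.9 and 73.9 CPM in WT and 56.0 and 65.5 CPM in CD4/ALK4-KO libraries. The log2 fold change was -0.29 (SE 0.21), and it was -0.15 (SE 0.22) without CD4/ALK4-KO replicate 1. Runx1 is widely used by blood cells, and Id3 is expressed by many cell types.

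The T cell genes themselves were higher in the CD4/ALK4-KO libraries, so the 10 genes were also set against the summed counts of the CD3 genes Cd3d, Cd3e, Cd3g and Cd247, which encode the signaling chains of the T cell receptor complex. These sums were 2650 and 2454 counts in WT libraries and 10768 and 9932 in CD4/ALK4-KO libraries. On this scale the median log2 difference was 0.45 over the 10 genes and -2.19 over all genes tested. Per CD3 count, 6 of the 10 genes were higher in both CD4/ALK4-KO libraries, 3 were lower in both, and Ets1 overlapped, while 1.06% of all genes tested were higher and 94.7% lower in this way. Since the same contrast chose members of the list, nothing further is read from this count or from the median. The scale assumes that CD3 genes have the same level per T cell in both genotypes, which was not tested.

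Relative to CD3, Tox had 23.0 and 18.7 counts per 1000 CD3 counts in WT libraries and 31.9 and 33.9 in CD4/ALK4-KO libraries, a log2 difference of 0.65 (SE 0.36). The larger part of its difference in CPM was thus shared with the CD3 genes. Tox2 had 1.51 and 0.815 against 2.60 and 4.13 per 1000 CD3 counts (log2 1.50, SE 0.84). Tox4 reversed, with 234 and 273 in WT against 91.7 and 106 in CD4/ALK4-KO libraries (log2 -1.36, SE 0.25).

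Myb had 12.5 and 15.9 counts per 1000 CD3 counts in WT libraries, 54.7 in CD4/ALK4-KO replicate 1 and 18.9 in CD4/ALK4-KO replicate 2 (log2 1.38, SE 0.38). In CD4/ALK4-KO replicate 2, Myb was thus little above the higher WT library on this scale. Bcl11b had 47.2 and 48.1 against 70.5 and 60.2 (log2 0.46, SE 0.31), Ikzf1 188 and 256 against 279 and 326 (log2 0.45, SE 0.23), and Ikzf3 71.7 and 75.0 against 101 and 139 (log2 0.72, SE 0.28). Ets1 had 846 and 971 against 859 and 974 per 1000 CD3 counts (log2 0.01, SE 0.22), so the genotypes covered nearly the same range. Runx1, with 200 and 185 against 43.9 and 49.9 (log2 -2.03, SE 0.27), and Id3, with 388 and 407 against 61.9 and 81.5 (log2 -2.47, SE 0.25), lay near the median of all genes on this scale.

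**Figure D3:**
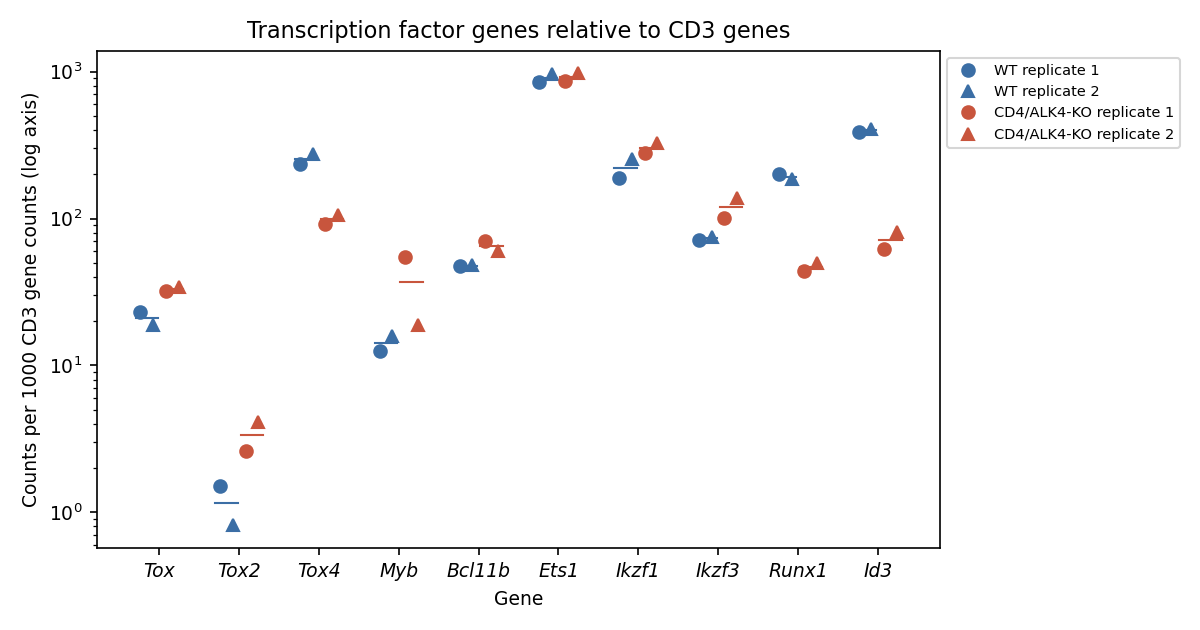
Counts of each of the 10 genes per 1000 counts of the CD3 genes, on a log axis, in the 4 libraries, with a line at the mean of each genotype. Ets1 stands at 846 to 974 in all 4 libraries, Tox at 18.7 to 23.0 in WT and 31.9 to 33.9 in CD4/ALK4-KO libraries, and Tox4, Runx1 and Id3 are lower in both CD4/ALK4-KO libraries.

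Levels were compared between the genes only after division by the length of their exons, as CPM per kb. In WT libraries Id3 was highest, at 41.5 ± 0.43 CPM per kb (SD, n = 2), followed by Ets1 at 20.0 ± 1.05. Ikzf1 (7.16 ± 1.24) and Tox4 (6.82 ± 0.429) overlapped and could not be ordered, and every other neighboring pair was separated. Runx1 (3.0 ± 0.305), Ikzf3 (1.57 ± 0.0212) and Bcl11b (1.10 ± 0.0347 CPM per kb) followed. Below them came Tox at 0.516 ± 0.0976, Myb at 0.296 ± 0.0376 and Tox2 at 0.0646 ± 0.0299 CPM per kb.

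In CD4/ALK4-KO libraries Ets1 came first, at 92.1 ± 0.489 CPM per kb (SD, n = 2), and Ikzf1 second at 44.5 ± 1.15, ahead of Id3 at 33.9 ± 3.75. Tox4 (12.1 ± 0.2) overlapped with Ikzf3 (11.6 ± 1.65), and Bcl11b stood at 6.92 ± 1.34 CPM per kb. Tox (3.69 ± 0.141) overlapped with Myb (3.62 ± 2.71), and Myb with Runx1 (3.32 ± 0.0257), because the Myb libraries were far apart. Tox2 was last in both genotypes, at 0.834 ± 0.201 CPM per kb. Tox thus stood below Runx1 in WT libraries and slightly above it in CD4/ALK4-KO libraries. In the latter, Tox was at 3.59 to 3.79 and Runx1 at 3.3 to 3.34 CPM per kb. The length counts every annotated exon, whether or not it is used in these cells, so an order this close depends on it.

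**Figure D4:**
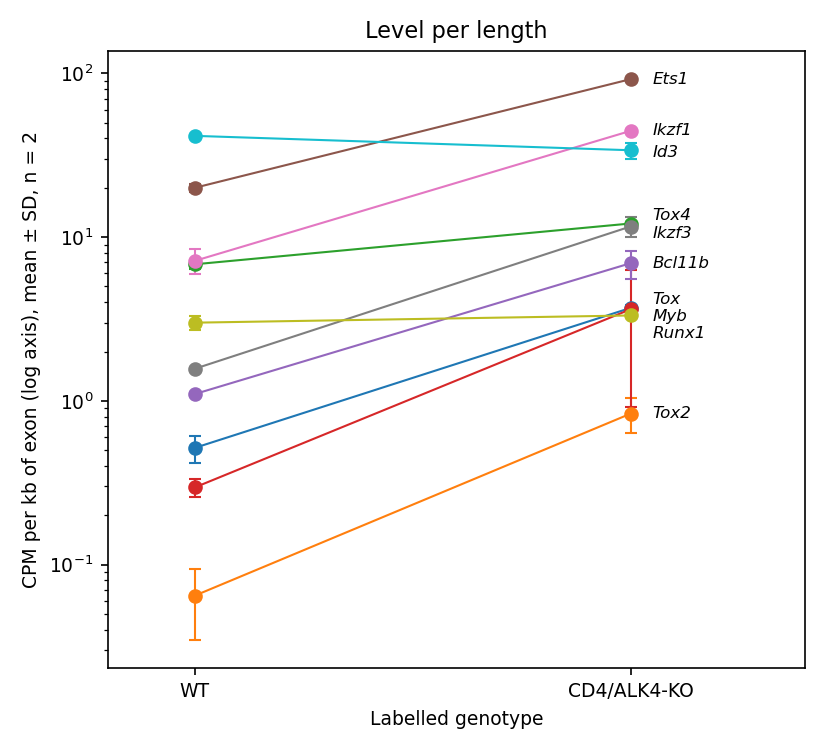
Mean level of each of the 10 genes in CPM per kb of exon, on a log axis, in WT and CD4/ALK4-KO libraries, with the SD of 2 libraries as bars. Id3 is highest in WT at 41.5 and Ets1 in CD4/ALK4-KO libraries at 92.1 CPM per kb, and Tox2 is lowest in both.

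The genes with the most similar course over the 4 libraries were found by the Euclidean distance between centered log2 CPM among 10451 genes that averaged 100 counts or more. For Tox these were Lck, the kinase that starts T cell receptor signaling (distance 0.056), Jakmip1 (0.16), the CD3 gene Cd3e (0.17) and the chemokine receptor genes Ccr6 (0.20) and Ccr4 (0.21). Lck had 824 and 625 counts in WT and 4720 and 4514 in CD4/ALK4-KO libraries. For Myb the nearest genes were farther away, namely Slc16a5 (0.63), Map7 (0.76), the kinase gene Camk4 (0.86) and the chromatin organizer gene Satb1 (0.87). Distances over 4 libraries describe these libraries alone.

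The relatives of these genes were compared next, as 50 genes of the same families and other factors of the T lineage, of which 48 passed the filter. By the edgeR quasi-likelihood test, 28 were higher and 4 lower in CD4/ALK4-KO libraries and 16 did not pass the threshold, where 17.4% of all genes tested were higher and 15.4% lower. Their median log2 fold change was 0.80. The 4 that fell were Mybl2, Erf, Id1 and Hes1. On the CD3 scale only Satb1 of the 48 was called higher (log2 0.79) and 33 were lower, with a median of -1.39, beside 0.345% of all genes tested higher and 92.0% lower. Without CD4/ALK4-KO replicate 1 the counts were 28 higher and 6 lower, beside 20.3% and 17.5% of all genes tested. Fewer of the 48 and of all genes tested passed the edgeR test in the fits that left out a WT library. This was not so in the fits that left out a CD4/ALK4-KO library. Each fit without a WT library rests on a single library of that genotype. These fits called 7.66% and 9.34% of all genes tested higher and 5.24% and 7.27% lower. The log2 fold changes of the 4 that fell stayed of like size, at -1.23 and -1.73 for Mybl2, -0.71 and -0.92 for Erf, -0.68 and -0.94 for Id1 and -1.11 and -1.23 for Hes1 without WT replicate 1 and 2 in turn. Ets2 (0.83 and 0.88), Elf2 (0.57 and 0.86), Etv6 (0.76 and 0.89), Ikzf5 (0.64 and 0.89), Id2 (0.69 and 0.72) and Zbtb1 (0.53 and 0.71) passed the edgeR test in neither of the fits without a WT library.

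Of the MYB family, Mybl2, a gene of dividing cells, fell by 1.50 on the log2 scale (SE 0.37, adjusted p = 0.0033), with 148 and 103 counts in WT and 41 and 38 in CD4/ALK4-KO libraries, while Mybl1 had a log2 fold change of -0.83 (SE 0.33, adjusted p = 0.061), which passed without CD4/ALK4-KO replicate 2 (-0.95, adjusted p = 0.038). Both had the opposite sign to Myb. In the cell cycle list, 11 of 16 genes were lower and none higher, with sums of 2320 to 2410 CPM in WT and 1280 to 1590 CPM in CD4/ALK4-KO libraries. The part of dividing cells in the value of Mybl2 was not tested. Bcl11a, the relative of Bcl11b that is used by B cells and dendritic cells, rose by 2.07 on the log2 scale (SE 0.40, adjusted p = 0.00035), with 30 and 26 counts against 87 and 124. Spib, an ETS gene of B cells and plasmacytoid dendritic cells, rose by 2.60 (SE 0.39, adjusted p = 2.1e-05), with 40 and 30 counts against 115 and 267. As for the B cell list, Bcl11a and Spib were higher in CD4/ALK4-KO replicate 2 than in replicate 1.

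In the ETS family, 9 of 15 relatives rose and 1 fell, with a median log2 fold change of 0.83. Beside Spib, Fli1, an ETS factor of blood cells, rose by 1.79 (SE 0.23, adjusted p = 3e-06) and Elf1 by 1.37 (SE 0.23, adjusted p = 7.3e-05), both below the 2.20 of Ets1. The repressor gene Erf fell by 0.81 (SE 0.23, adjusted p = 0.0096). The myeloid factor gene Spi1 had a log2 fold change near 0, and the endothelial factor gene Erg one of 0.37 (SE 0.57, adjusted p = 0.67). All 3 Ikaros relatives rose: Ikzf2, which encodes Helios and is high in regulatory T cells, by 2.31 (SE 0.23, adjusted p = 1.5e-07), Ikzf4 by 2.39 (SE 0.50, adjusted p = 0.0009) and Ikzf5 by 0.77 (SE 0.24, adjusted p = 0.016). The regulatory T cell list rose for 7 of 7 genes as well, from 100 to 140 CPM to 512 to 569 CPM, and its part in the value of Ikzf2 and Ikzf4 was not tested. Ikzf5 lost its call without CD4/ALK4-KO replicate 1 (log2 0.48, adjusted p = 0.11).

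Of the RUNX group, Runx3, the factor of the CD8 T cell and NK cell lineages, rose by 1.23 (SE 0.31, adjusted p = 0.004), with 131 and 101 counts in WT and 171 and 316 in CD4/ALK4-KO libraries. It lost its call without WT replicate 2 (log2 1.06, adjusted p = 0.074). CD8 genes rose for 2 of 2, with 43.6 to 47.8 CPM against 192 to 310 CPM, beside the NK cell genes given above, and their part in Runx3 was not tested. Runx2 (log2 0.35) and Cbfb, the partner of RUNX proteins (log2 0.29, SE 0.22, adjusted p = 0.33), did not pass the threshold, and neither value was far from the 0.15 of Runx1. Without CD4/ALK4-KO replicate 1, Runx2 passed it (log2 0.80, adjusted p = 0.012). Of the E proteins and their inhibitors, Id2 rose by 0.71 (SE 0.22, adjusted p = 0.016), Id1 fell by 0.81 (SE 0.27, adjusted p = 0.025, and 0.055 without CD4/ALK4-KO replicate 2), and Tcf3, Tcf4 and Tcf12 had log2 fold changes of -0.51, -0.51 and -0.35 without passing the threshold. Tcf12 passed it without CD4/ALK4-KO replicate 1 (log2 -0.55, adjusted p = 0.017) and Tcf4 without replicate 2 (log2 -0.52, adjusted p = 0.041). Id4 was too low to be tested.

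Among the other T-lineage factors, 13 of 19 rose and 1 fell, with a median log2 fold change of 1.55. Tcf7, which encodes TCF-1 of naive and memory T cells, rose by 2.39 (SE 0.22, adjusted p = 5.7e-08), and Lef1, its close relative, by 2.73 (SE 0.24, adjusted p = 3.9e-08). Gata3, the factor of CD4+ T cell and type 2 helper fate, rose by 2.40 (SE 0.35, adjusted p = 1.9e-05), and Bach2, a repressor that holds T cells in a resting state, by 2.84 (SE 0.30, adjusted p = 3.5e-07). Satb1, which shapes chromatin in thymocytes and T cells, rose by 3.0 (SE 0.26, adjusted p = 2.8e-08), with 333 and 488 counts in WT and 3466 and 2388 in CD4/ALK4-KO libraries, and by 2.71 without CD4/ALK4-KO replicate 1. These 5 values, from 2.39 to 3.0, were the highest of the 19, and the smallest rise that passed was 0.63, for Zbtb1. The 10 genes described above ran from -0.29 for Id3 to 3.63 for Tox2. Foxo1 (log2 2.20, SE 0.25, adjusted p = 7.5e-07) and Notch1 (log2 1.80, SE 0.27, adjusted p = 2e-05) rose as well, whereas Hes1, a target of Notch signaling, fell by 1.16 (SE 0.34, adjusted p = 0.011). Sox4 had a log2 fold change of -0.48 (SE 0.27, adjusted p = 0.17), and it fell by 0.95 without CD4/ALK4-KO replicate 1 (adjusted p = 0.0018). Klf2, Zeb1 and Zbtb7b, the factor gene of CD4 commitment, had values of 0.09, 0.02 and 0.16 and did not pass the threshold.

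**Figure D5:**
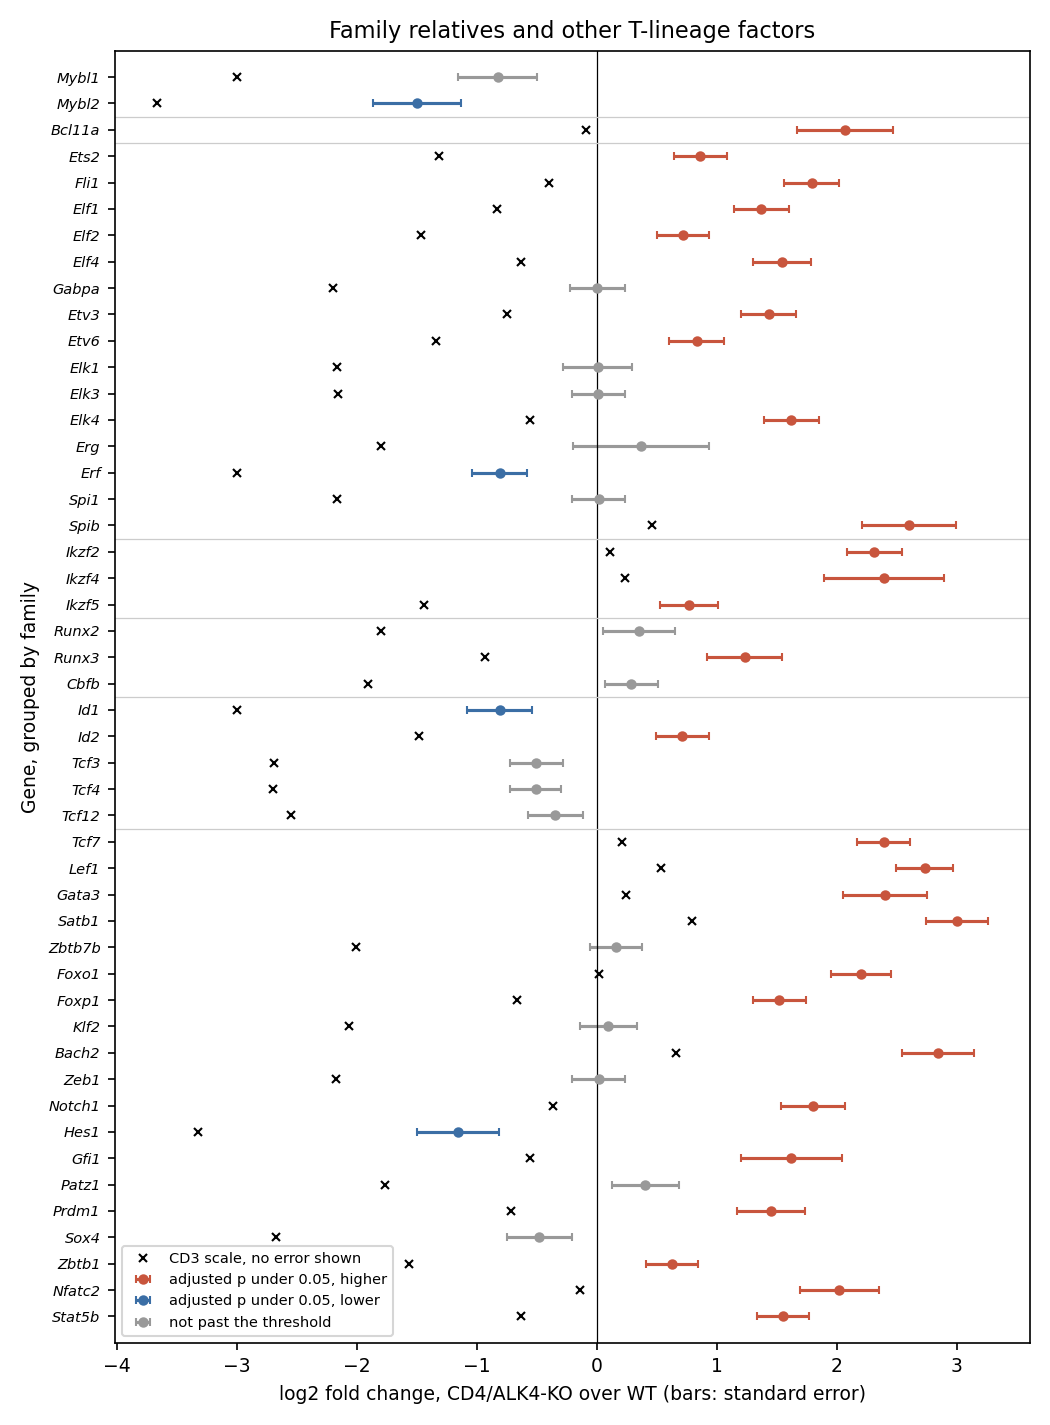
Log2 fold change of CD4/ALK4-KO over WT libraries for the 48 relatives tested, grouped by family, with the standard error as bars and color for the edgeR call, and crosses for the value on the CD3 scale. Of the 48, 28 are higher and 4 lower in CPM, and on the CD3 scale Satb1 is the gene called higher, at 0.79.

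The sequence around the start site was examined for 7 of the 10 genes. RefSeq promoters on GRCm38.p6 were used for Tox2, Tox4, Myb, Bcl11b, Ikzf1, Runx1 and Id3. There were 13 windows of 300 bases in all, of which 250 lie before the start and the rest after it. Windows for Tox, Ets1 and Ikzf3 were not used here. The 250 bases before the start are shown for 3 genes that were higher in CD4/ALK4-KO libraries and had a match to a motif of a T cell factor family, with matches in capitals on either strand. They lie at chr10:21160985-21161234 on the minus strand for Myb, at chr2:163202877-163203126 on the plus strand for the first Tox2 start, and at chr12:108003415-108003664 on the minus strand for Bcl11b.
Myb: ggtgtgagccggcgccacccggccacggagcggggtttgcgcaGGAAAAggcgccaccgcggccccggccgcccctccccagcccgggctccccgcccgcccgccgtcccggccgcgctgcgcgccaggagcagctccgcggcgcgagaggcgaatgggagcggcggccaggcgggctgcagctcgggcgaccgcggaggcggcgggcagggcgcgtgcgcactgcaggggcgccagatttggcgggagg
Tox2: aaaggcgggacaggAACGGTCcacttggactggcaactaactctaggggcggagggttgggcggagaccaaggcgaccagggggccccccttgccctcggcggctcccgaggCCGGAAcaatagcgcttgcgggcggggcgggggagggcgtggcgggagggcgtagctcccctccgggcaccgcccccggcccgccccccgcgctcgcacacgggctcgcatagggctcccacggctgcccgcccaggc
Bcl11b: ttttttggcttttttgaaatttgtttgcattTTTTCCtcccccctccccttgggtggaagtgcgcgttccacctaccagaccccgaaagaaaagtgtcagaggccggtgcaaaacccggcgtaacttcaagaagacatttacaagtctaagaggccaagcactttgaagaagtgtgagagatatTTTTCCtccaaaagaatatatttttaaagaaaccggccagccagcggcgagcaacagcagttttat
The Myb window held GGAAAA, an NFAT-type core, at position -207 from the start. The Tox2 window held AACNGTC, a MYB-type motif, at -236 and CCGGAA, an ETS-type motif, at -138, and the Bcl11b window held the NFAT-type core on the opposite strand at -219 and -66. The first 2 windows were rich in G and C (75.0% and 77.0%), and that of Bcl11b was not (43.0%, against a median of 52.7% over all windows).

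Over both strands and all windows of a gene, GGAAAA was found for 4 of the 7 genes (Myb, Tox2, Bcl11b and Id3) and for 26.1% of 27025 genes. CCGGAA was found for Runx1 and Tox2 (16.7% of all genes), AACNGTC for Tox2 (9.17%) and the RUNX-type TGTGGT for Runx1 (18.9%). The GGAAAA match of Id3 (+27) and the TGTGGT matches of Runx1 (+29 and +37) lay after the start. The Ikaros-type TGGGAA (28.3% of all genes) and the E-box CAGCTG (18.3%) were found for none of the 7. Tox2 had more windows than the other genes and so more room for a match. These matches describe letters in a window and give no information on binding.

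The remaining marker lists are given for completeness beside the 10 genes. Naive T cell genes were higher for 5 of 6 and lower for 1, with sums of 993 to 1020 CPM in WT and 1570 to 1920 CPM in CD4/ALK4-KO libraries. The summed levels overlapped between the genotypes for plasma cell genes (410 to 475 CPM against 397 to 427 CPM) and neutrophil genes (923 to 1400 CPM against 939 to 1440 CPM). They also overlapped for progenitor and mast cell genes, which can share Myb with thymocytes (192 to 243 CPM against 186 to 255 CPM). By gene, 2 of the 5 plasma cell genes tested were higher and 1 lower (median log2 fold change 1.27). Neutrophil genes were higher for 2 of 8 with 0 lower, and progenitor and mast cell genes higher for 2 of 10 with 1 lower. Group 2 innate lymphoid cell genes summed to 1280 to 1950 CPM and 1050 to 1300 CPM, with Il13 at 0 in all libraries. Epithelial genes were lower for 6 of 11 and higher for 2 (901 to 916 CPM against 447 to 589 CPM), endothelial genes higher for 1 of 7 and lower for 1 (median log2 fold change -0.54, although the sum went from 57.4 to 73.9 CPM to 127 to 140 CPM through Pecam1, which leukocytes also use), fibroblast genes summed to 6890 to 7430 CPM against 4020 to 4830 CPM, and erythroid genes to 2060 to 4610 CPM against 1200 to 3000 CPM with Hbb-bt at 0 in all libraries.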

How the data were processed

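RNA-Seq counts of 4 libraries of CD4+ T cells isolated from lung tumors were used, with genotype and replicate taken from the labels. Per the labels and the study's methods, TruSeq RNA v2 libraries, which do not mark strand, were read as single ends of 75 bases. The authors used HISAT2 for alignment to mm10 and htseq-count (intersection-nonempty) for counting, and deposited unnormalized counts for 25239 gene symbols. The annotation, strand option and tool versions are not given in the sources used here. Library totals were 11823908 to 13943237 counts, and replicates differed beyond counting noise (chi-square per degree of freedom 16.0 in WT and 28.7 in CD4/ALK4-KO).

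In R 4.3.3 with edgeR 4.0.16, filterByExpr kept 13919 genes, scaling was by TMM, and genotype, with no other term, was tested two-sided in robust quasi-likelihood fits over all genes with Benjamini-Hochberg adjustment and a threshold of 0.05 (common dispersion 0.0357). CPM used the TMM-adjusted library sizes. The script was tested on simulated data. Lengths and positions are those of GENCODE M21 on GRCm38, the build of mm10, and promoters those of RefSeq. Named were the 10 genes, their 50 relatives, the 3 most abundant genes of each marker list and markers at 0, Acvr1b, Cd4 and the 5 genes nearest to Tox and to Myb, of which 1 is not reported here. The 10 genes and all lists were chosen with earlier results of these data known. Alternatives were DESeq2 1.42.0, upper quartile scaling, a scale set by 4 CD3 genes, no filter or at least 10 counts in every library, removal of 99 ribosomal, mitochondrial, immunoglobulin and haemoglobin genes, the replicate number as a block, and each library left out.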

Additional observations from a re-analysis of the deposited data

How the results depend on the processing

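With 2 libraries per genotype, 1 library that stands apart weighs heavily. Leaving out each library gave 1103 (without WT replicate 1) to 2923 genes called higher and 754 (without WT replicate 1) to 2618 called lower of all genes, 0 to 6 relatives called lower, and for genes that changed sign the ranges -0.30 to 0.27 (Gabpa), -0.18 to 0.22 (Zeb1 and Elk3), -0.12 to 0.15 (Elk1), -0.17 to 0.41 (Klf2), -0.24 to 0.80 (Runx2), -0.03 to 0.08 (Spi1) and -0.01 to 0.33 (Zbtb7b). The replicate numbers shared only a number (correlation of same-numbered deviations -0.214). With the replicate block 1768 genes were higher and 1444 lower, with 24 relatives higher and 3 lower, and Gabpa turned to -0.03; in a crossed pairing, added after seeing the data, 3118 were higher and 3037 lower, with 7 relatives lower. Upper quartile scaling called 7 relatives lower and turned Elk1 and Elk3 (-0.06), Gabpa (-0.07), Spi1 and Zeb1 (-0.05). DESeq2, both other filters and the removal of abundant gene classes changed no direction among the 10 genes, but Tox2 could not be fitted with at least 10 counts in every library. The causes were not tested.

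The CD3 scale moves the zero by its own construction, to a median of -2.19 over all genes: 48 genes were called higher and 12803 lower, 1 relative higher and 33 lower, and the median of the 10 genes was 0.45. Tox4 (-1.36) and Runx1 (-2.03) changed sign, as did Bcl11a (-0.09), Nfatc2 (-0.14), Notch1 (-0.37), Fli1 (-0.40), Elk4 and Gfi1 (-0.56), Elf4 and Stat5b (-0.63), Foxp1 (-0.67), Prdm1 (-0.72), Etv3 (-0.75), Elf1 (-0.83), Runx3 (-0.93), Ets2 (-1.32), Etv6 (-1.34), Ikzf5 (-1.44), Elf2 (-1.47), Id2 (-1.48), Zbtb1 (-1.57), Patz1 (-1.77), Erg and Runx2 (-1.80), Cbfb (-1.91), Zbtb7b (-2.01), Klf2 (-2.07), Elk3 (-2.16), Elk1 and Spi1 (-2.17), Zeb1 (-2.18) and Gabpa (-2.20).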
